A study of Mus musculus with 24 samples.

Results

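The transcripts described here encode 4 families of drug-metabolising enzymes in mouse thoracic aorta: the cytochromes P450 (Cyp genes), the cytosolic glutathione transferases (Gst), the UDP-glucuronosyltransferases (Ugt) and the sulfotransferases (Sult). They were taken from the gene table by symbol, as Cyp with a number, a letter and a number, Gst of the classes a, m, p, t, o and z, Ugt of families 1 and 2, and any numbered Sult. A mean raw count of at least 10 over all 24 libraries was required. Of 112 rows whose symbols fit, 45 passed, in a table of 25941 genes. The 45 members were 24 of 69 Cyp rows, 16 of 20 Gst rows, 2 of 13 Ugt rows and 3 of 10 Sult rows, and 11 of the 112 rows were listed at 0 in every library. The members just inside the limit were Gsto2, Cyp4f18 and Cyp27b1, with mean counts of 10.1, 11.5 and 12.5, and the rows just outside it were Cyp2s1, Cyp3a13 and Sult1e1, with 8.42, 7.17 and 5.88. A limit of 5 would have kept 49 rows and a limit of 50 would have kept 33, and 42 of the 45 members also had a mean of at least 10 in each group alone. All 45 passed the filter on low counts that came before the tests. The symbol patterns take families rather than functions, so they also hold P450s whose known substrates are sterols, retinoic acid or vitamin D.

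Cytochromes P450 are haem enzymes that insert oxygen into lipophilic compounds with electrons passed on by the reductase Por. The transferases then couple the products to glutathione, glucuronic acid or sulfate, which makes them easier to export. The liver carries most of this capacity for drugs, and in the vessel wall the same families also handle fatty acids, steroids, retinoids and products of lipid oxidation. Many of the genes are known to be induced through the aryl hydrocarbon receptor, the constitutive androstane and pregnane X receptors, or NRF2. Celecoxib itself is cleared mainly by hepatic P450s, and rofecoxib mainly by reduction in the cytosol.

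Gene expression was measured by polyA RNA-seq in thoracic aortas from wild-type C57BL/6 male mice that were 10 to 12 weeks old, collected at zeitgeber time 11 (hours after lights on). The mice ate plain chow (control), chow with celecoxib at 100 mg/kg/day or chow with rofecoxib at 50 mg/kg/day for 3 weeks, with 8 libraries per group. Celecoxib and rofecoxib are inhibitors selective for cyclooxygenase-2, and all mice were wild type, so no group carried an altered allele. The doses of the drugs differed, and the number that ends each library title runs in a separate block for each group. What it marks is not stated, so any order or batch it follows cannot be told apart from the group. The labels do not tie libraries to animals, so p-values measure the spread between these samples, and both drug groups are set against the same 8 controls.

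Library totals were nearly equal, from 21652432 to 21687906 counts. What made them so is not stated, so they do not show how deeply each group was sequenced. Levels are CPM, counts scaled to library size with TMM factors, and fold changes are log2 ratios of group means with their standard error (SE) from edgeR's quasi-likelihood test, called at an adjusted p under 0.05. The 10 smooth muscle markers, which define the wall of the aorta, summed to 34385 to 52027 CPM in every library. The 11 hepatocyte markers summed to only 0.137 to 4.26 CPM, none of them passed the filter on low counts, and 1 or 2 of them were at 0 throughout a group. Control 6 stood apart: its 12 adipocyte markers summed to 8477 CPM, against a control median of 3186 CPM, and several results that rest on it are given with and without it.

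Per kilobase of exon, the glutathione transferase Gstm1 was the most abundant member by far. Its mean over the 24 libraries was 352 CPM per kb, followed by the ethanol-inducible P450 Cyp2e1 at 125 and Gstm2 at 119 CPM per kb. Gstt1 (46.4), Gstp1 (41.0) and the phenol sulfotransferase Sult1a1 (37.1) came next, then Gstm5 (20.1), the orphan P450 Cyp20a1 (15.9), Gsto1 (13.0) and Cyp1b1 (12.7 CPM per kb). Of the 10 most abundant members, 6 were thus glutathione transferases. At the other end, Ugt1a7c, Gsto2, Cyp1a1, Cyp27b1 and Cyp4f18 lay between 0.188 and 0.284 CPM per kb. Summed over members on the CPM scale, which is not length-corrected, the 16 glutathione transferases summed to 1070 ± 44.1 CPM and all members to 1714 ± 182 CPM in controls (SD, n = 8). The mean over libraries of the glutathione transferase share was 62.8% in controls. The mean share was 59.2% with celecoxib and 63.8% with rofecoxib. The 9 P450s of families 1 to 3 other than Cyp2r1 held 22.9%, 26.0% and 22.1% in controls, celecoxib and rofecoxib.

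**Figure D1:**
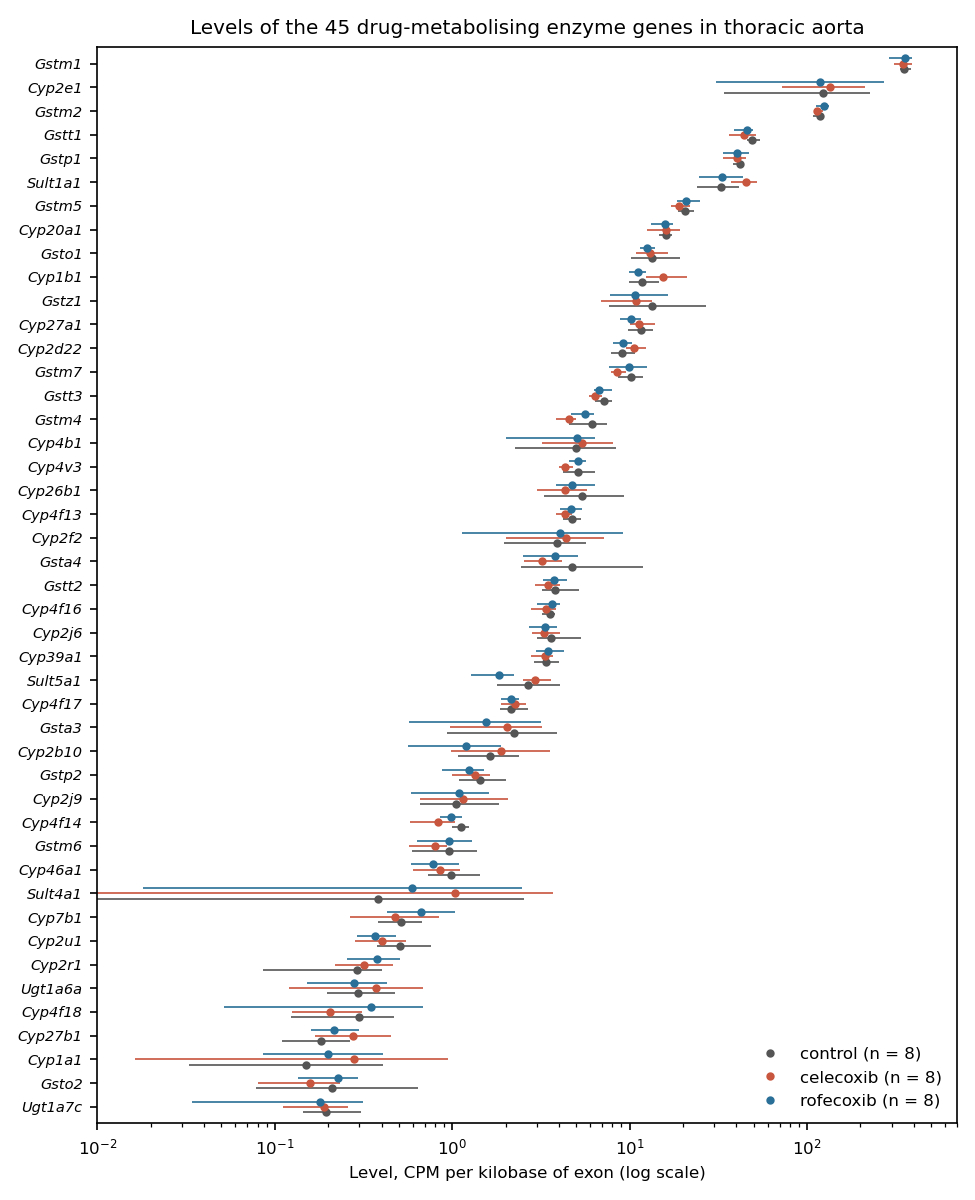
Levels of the 45 members, ordered by CPM per kilobase of exon on a log axis; points are group means and lines run from the lowest to the highest of 8 libraries. The scale spans from 0.188 CPM per kb for Ugt1a7c to 352 for Gstm1; the lines of Sult4a1 start at 0 in controls and celecoxib, off the log axis.

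Few members differed between the groups. For celecoxib against control, edgeR called 4 of 45 members (8.89%), beside 1.41% of all 14451 genes tested: Cyp1b1 and Sult1a1 were higher (0.913% of all genes were called higher) and Gstm4 and Cyp4f14 were lower (0.498%). For rofecoxib against control, only Sult5a1 was called (2.22% of members), lower, beside 5.3% of all genes (2.43% higher, 2.87% lower). Between the drugs 8 of 45 members (17.8%) were called, beside 22.7% of all genes, so this share did not exceed the background. Cyp1b1, Sult5a1, Sult1a1 and Cyp2d22 were higher with celecoxib (11.5% of all genes were) and Gstm4, Cyp4v3, Gstm2 and Gstm7 were lower (11.2%). At an unadjusted p under 0.05 the counts were 13, 4 and 13 of 45 in the same order of comparisons, beside 17.3%, 27.1% and 36% of all genes. No member had groups free of overlap in either comparison with control, where 0.298% and 0.567% of all genes did, while Cyp1b1 and Sult5a1 did between the drugs, beside 1.67%. The median log2 fold change over the 45 members was -0.06 for celecoxib, -0.03 for rofecoxib and 0.0081 between the drugs, and over all genes tested -0.0053, -0.00021 and -0.0026. Since the comparisons with control share the same controls, their values are given side by side and were not combined.

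**Figure D2:**
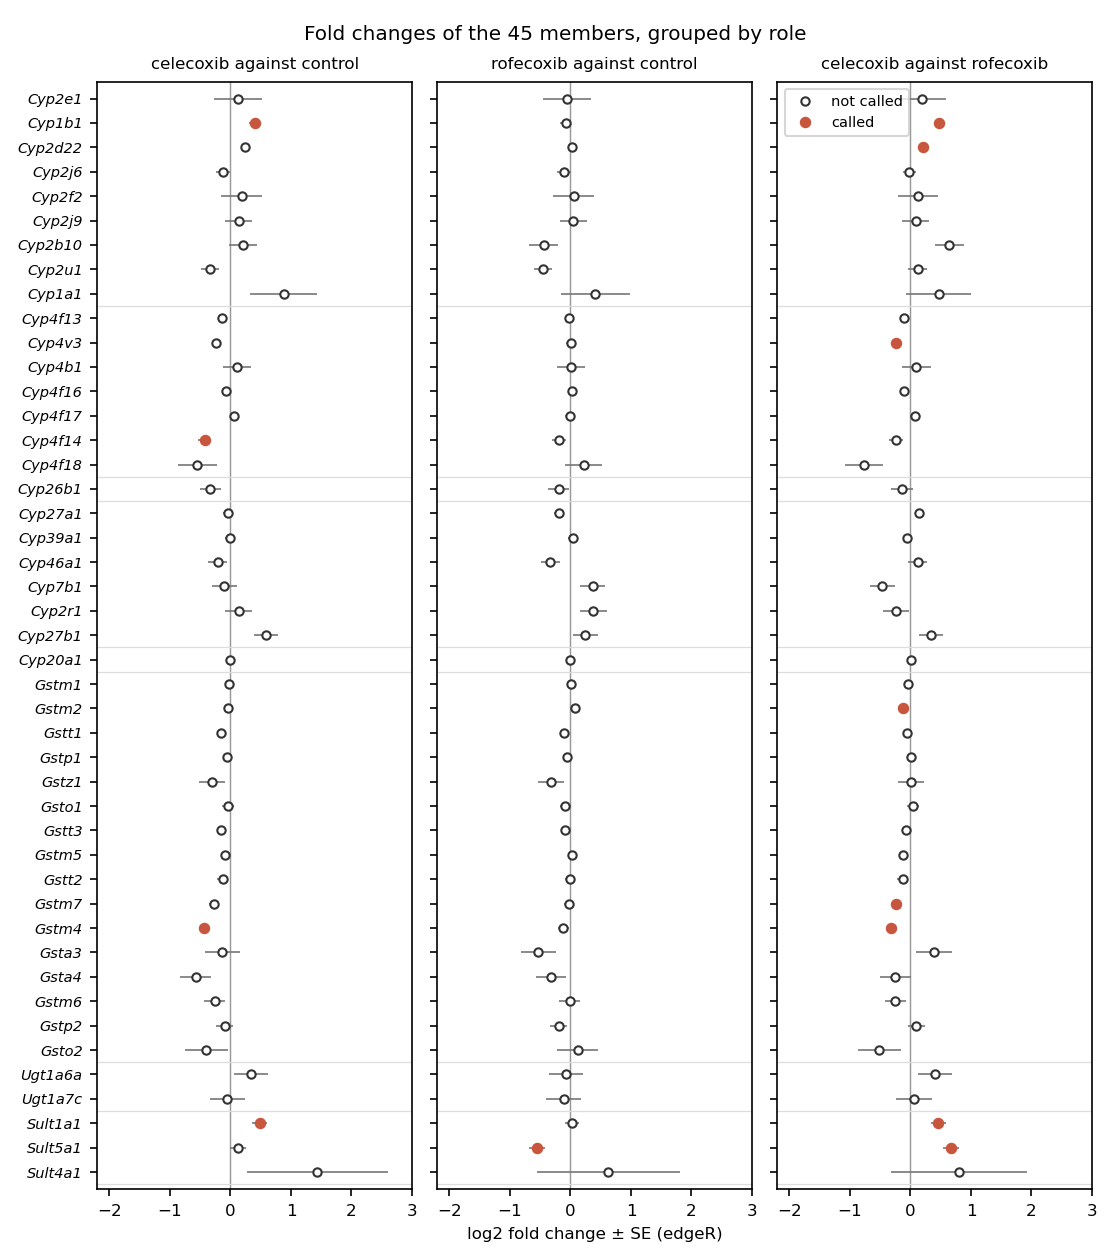
Log2 fold change ± SE of each member in the 3 comparisons, ordered by role with grey lines between roles; filled points were called by edgeR (4, 1 and 8 members). Most points lie close to 0, and the widest bars belong to the low-count members Sult4a1 and Cyp1a1.

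The sequences just upstream of the start sites of the 5 members called against control are shown because both directions of change are among them and some of them hold a motif that the aryl hydrocarbon receptor is known to bind. RefSeq gave a promoter for 37 of the 45 members on GRCm38.p6, and for genes with several starts the first listed was used. Each run is the 250 bases before the start, 5′ to 3′ on the gene's own strand, at chr17:79715062-79715311 for Cyp1b1, chr17:32917357-32917606 for Cyp4f14, chr3:108044860-108045109 for Gstm4, chr7:126676419-126676668 for Sult1a1 and chr8:123158281-123158530 for Sult5a1, all on the minus strand. Capitals mark the core of the aryl hydrocarbon receptor element, GCGTG, or its reverse complement.
Cyp1b1: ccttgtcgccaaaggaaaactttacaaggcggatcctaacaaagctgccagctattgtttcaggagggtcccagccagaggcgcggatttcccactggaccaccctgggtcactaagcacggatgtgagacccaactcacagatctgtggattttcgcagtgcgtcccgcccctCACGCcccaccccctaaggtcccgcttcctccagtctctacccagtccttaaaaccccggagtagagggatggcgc
Cyp4f14: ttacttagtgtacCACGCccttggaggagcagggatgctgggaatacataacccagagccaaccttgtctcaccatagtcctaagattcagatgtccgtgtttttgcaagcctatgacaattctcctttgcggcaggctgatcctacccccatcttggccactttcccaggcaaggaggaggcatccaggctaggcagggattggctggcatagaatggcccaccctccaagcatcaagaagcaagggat
Gstm4: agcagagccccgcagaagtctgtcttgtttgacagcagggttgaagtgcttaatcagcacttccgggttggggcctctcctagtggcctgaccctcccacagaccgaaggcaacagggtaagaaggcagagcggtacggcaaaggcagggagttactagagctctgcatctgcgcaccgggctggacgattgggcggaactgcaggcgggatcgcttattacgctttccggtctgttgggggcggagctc
Sult1a1: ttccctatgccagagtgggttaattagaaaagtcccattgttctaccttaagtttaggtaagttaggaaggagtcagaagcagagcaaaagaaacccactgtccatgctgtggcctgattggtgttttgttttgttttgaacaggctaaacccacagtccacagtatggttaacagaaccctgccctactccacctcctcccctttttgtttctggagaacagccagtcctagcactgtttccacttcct
Sult5a1: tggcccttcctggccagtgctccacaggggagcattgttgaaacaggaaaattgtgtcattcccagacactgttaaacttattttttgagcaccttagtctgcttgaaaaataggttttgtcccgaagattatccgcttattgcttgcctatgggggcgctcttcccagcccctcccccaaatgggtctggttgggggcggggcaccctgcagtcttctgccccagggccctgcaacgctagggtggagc
Cyp1b1 held 1 core, 76 bases before the start, and Cyp4f14 held 1 at 237 bases. Gstm4, Sult1a1 and Sult5a1 held none in this window. On both strands the core was present in 12 of the 37 member promoters (32.4%), beside 28.2% of 32851 mouse promoter windows of the same length. The antioxidant response element TGACNNNGC, which NRF2 binds, was in 3 (8.11%, in Gsta3, Gstm5 and Cyp4f18) beside 10.2%. Each motif was counted on its own, also where it overlapped another. A match describes these letters only. Promoters were not looked up for Cyp2d22, Cyp2u1, Cyp39a1, Cyp4f17, Cyp7b1, Gsta4, Gstt2 and Sult4a1, which the table does not list.

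Among the 9 P450s of families 1 to 3, which oxidise drugs, hormones and fatty acids, Cyp1b1 was the member that changed with celecoxib. Cyp2r1 is grouped with the vitamin D P450s below and is not among the 9. Cyp1b1 (ENSMUSG00000024087, mm9 chr17:80106032-80114603) encodes an extrahepatic P450 that metabolises oestradiol, polycyclic hydrocarbons and retinoids and is a known target of the aryl hydrocarbon receptor. Its level ran from 58.2 to 85.4 CPM in controls (median 68.7), from 72.7 to 122 with celecoxib (median 87.9) and from 57.6 to 71.9 with rofecoxib (median 65.1). All 8 celecoxib libraries lay above the control mean and 5 above the highest control, and every celecoxib library exceeded every rofecoxib library. The mean rose from 68.2 ± 9.38 to 90.2 ± 15.2 CPM (SD, n = 8 each), a log2 fold change of 0.40 ± 0.09 (edgeR adjusted p = 0.0281). Against rofecoxib, at 64.7 ± 5.56 CPM, the log2 fold change was 0.48 ± 0.09 (edgeR adjusted p = 0.0016). When each of the 24 libraries was left out in turn, the call against control ended without celecoxib 4 or 5 or control 2, 3 or 4 (edgeR adjusted p up to 0.066), and it also ended in a fit of these 2 groups alone (edgeR adjusted p = 0.0666), while the call against rofecoxib was kept each time. In whole aorta a higher level per cell cannot be told apart from more cells of a type, here as in all results that follow.

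Cyp2d22, the mouse relative of the human drug-metabolising CYP2D enzymes, ran from 30.8 to 41.9 CPM in controls (median 34.8), 37.3 to 48.6 with celecoxib (median 40.5) and 31.5 to 40.6 with rofecoxib (median 35.2). All 8 celecoxib libraries lay above the mean of either other group, and the ranges overlapped. It was called between the drugs (0.21 ± 0.07, edgeR adjusted p = 0.0238) and not against control (0.24 ± 0.07, edgeR adjusted p = 0.0659). Both calls moved with the setting. The call between the drugs was lost without celecoxib 4 or rofecoxib 7 (edgeR adjusted p up to 0.0562) and after correction for transcript GC content (0.15, edgeR adjusted p = 0.146). The comparison with control passed without control 6 (0.28, edgeR adjusted p = 0.0277) or without celecoxib 1. It also passed in DESeq2, with the adipocyte marker score as a covariate, and without control 6 and with GC correction.

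The other 7 of these 9 P450s were not called by edgeR with all 24 libraries. DESeq2 called Cyp2u1 for rofecoxib against control and Cyp2b10 between the drugs, and edgeR also called Cyp2b10 between the drugs without celecoxib 4, celecoxib 7 or rofecoxib 2. Cyp1a1, the classic target of the aryl hydrocarbon receptor, was low, at 0.0917 to 1.14 CPM in controls (median 0.275), 0.0457 to 2.65 with celecoxib (median 0.492) and 0.240 to 1.13 with rofecoxib (median 0.476). The highest value was a single library, celecoxib 4, and the groups overlapped throughout. Cyp2e1 was abundant and had the widest spread among the 10 most abundant members, from 73.1 to 488 CPM in controls (median 242), 157 to 460 with celecoxib (median 303) and 66.0 to 587 with rofecoxib (median 163). The fatty acid epoxygenase Cyp2j6 lay at 13.0 ± 2.70, 11.9 ± 1.64 and 12.0 ± 1.74 CPM in controls, celecoxib and rofecoxib (SD, n = 8 each), with control 6 alone at 19.2 CPM. Cyp2u1, a fatty acid hydroxylase, was at 2.65 ± 0.667 CPM in controls and 1.93 ± 0.341 with rofecoxib, below the control mean in 8 of 8 libraries (-0.46 ± 0.15, edgeR adjusted p = 0.0685). Over the 9 genes, fold changes were positive for 7 with celecoxib (median 0.18) and for 4 with rofecoxib (median -0.06), while 6991 and 7219 of the 14451 genes tested were positive.

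**Figure D3:**
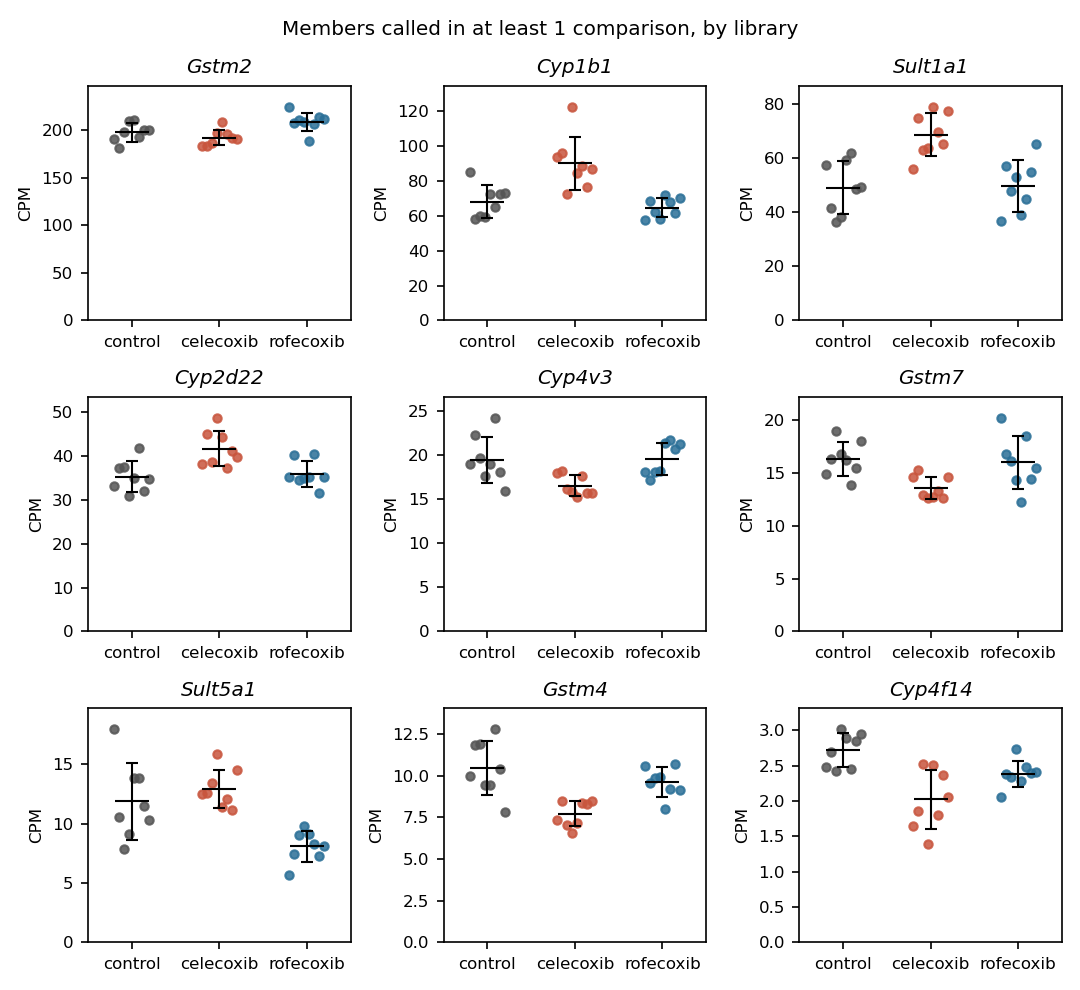
CPM per library of the 9 members called in at least 1 comparison; points are libraries, the horizontal mark is the mean and the bars are the SD of 8 libraries. Every celecoxib point lies above every rofecoxib point for Cyp1b1 and Sult5a1, and the groups overlap in the other panels.

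Family 4 P450s, which hydroxylate fatty acids and eicosanoids at the end of the chain, were mostly a little lower with celecoxib, and 1 of 7 was called. Cyp4f14, an enzyme of leukotriene and fatty acid hydroxylation (ENSMUSG00000024292, mm9 chr17:33041814-33054225), ran from 2.43 to 3.01 CPM in controls (median 2.77), 1.40 to 2.52 with celecoxib (median 1.96) and 2.06 to 2.73 with rofecoxib (median 2.38). Of the celecoxib libraries, 6 lay below the lowest control and all 8 below the control mean. The mean fell from 2.72 ± 0.239 to 2.02 ± 0.416 CPM (-0.43 ± 0.11, edgeR adjusted p = 0.0497). This call sat at the threshold and survived the removal of only 4 single libraries, celecoxib 3, celecoxib 7, rofecoxib 1 or control 6 (edgeR adjusted p 0.0416 to 0.0931), and it was also lost without a filter on low counts, in a fit of these 2 groups alone and with the replicate block (edgeR adjusted p = 0.0998, 0.0926 and 0.0681).

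Cyp4v3, a fatty acid hydroxylase, was lower with celecoxib than with rofecoxib, at 16.6 ± 1.17 against 19.6 ± 1.84 CPM, with controls at 19.5 ± 2.63 CPM (SD, n = 8 each). Its range was 15.3 to 18.2 CPM with celecoxib, 17.2 to 21.703 with rofecoxib and 15.97 to 24.2 in controls, and 5 celecoxib libraries lay below the lowest rofecoxib library. The difference between the drugs was called (-0.24 ± 0.07, edgeR adjusted p = 0.022) but not after GC correction (-0.14, edgeR adjusted p = 0.234), and that against control did not pass (-0.23 ± 0.07, edgeR adjusted p = 0.103). The row overlaps Klkb1 by 3070 bp, and whether the counting used strand is not stated in these sources, so reads of these genes cannot be told apart. The other 5 members were not called by edgeR with all 24 libraries and no GC correction; between the drugs Cyp4f13 passed after GC correction and Cyp4f18 without rofecoxib 1. Cyp4b1 ran from 5.08 to 18.9 CPM in controls, 7.24 to 18.1 with celecoxib and 4.56 to 14.4 with rofecoxib. Over the family, 5 of 7 fold changes were negative with celecoxib (median -0.14) and 3 of 7 with rofecoxib (median 0.01).

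None of the 6 P450s listed for sterols and vitamin D, nor Cyp26b1, was called by edgeR or DESeq2 with all 24 libraries in any comparison. Cyp7b1 passed between the drugs without celecoxib 2. Cyp1b1, which was called and also metabolises oestradiol and retinoids, is described above and not counted here. At an unadjusted p under 0.05, edgeR gave 1, 2 and 1 of the 6 sterol and vitamin D genes in the 3 comparisons. Cyp26b1, which breaks down retinoic acid, ran from 17.7 to 49.6 CPM in controls (median 26.1), 16.2 to 30.7 with celecoxib (median 23.8) and 20.6 to 34.1 with rofecoxib (median 22.8). Cyp27a1, the mitochondrial sterol 27-hydroxylase, was at 25.3 ± 2.88, 24.6 ± 2.88 and 22.2 ± 1.85 CPM in controls, celecoxib and rofecoxib. With rofecoxib it lay below the control mean in 8 of 8 libraries but did not pass (-0.19 ± 0.07, edgeR adjusted p = 0.106). The oxysterol hydroxylase Cyp7b1 was at 1.11 ± 0.238 CPM in controls and 1.44 ± 0.414 with rofecoxib (0.37 ± 0.21, edgeR adjusted p = 0.252), and the vitamin D 25-hydroxylase Cyp2r1 at 0.615 ± 0.222 and 0.802 ± 0.181 CPM (0.38 ± 0.22, edgeR adjusted p = 0.263). The vitamin D activating enzyme Cyp27b1 was low in all groups, at 0.470 ± 0.122, 0.709 ± 0.218 and 0.558 ± 0.149 CPM. The orphan Cyp20a1 was at 36.5 ± 2.21, 36.5 ± 4.57 and 36.2 ± 3.83 CPM.

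The 16 glutathione transferases, which detoxify electrophiles and lipid peroxidation products, all had a negative fold change with celecoxib, but only Gstm4 was called. The median over the 16 was -0.14, with fold changes from -0.57 to -0.03. Without control 6 the count of negative fold changes was 13 of 16 and the median -0.06, and with the adipocyte marker score as a covariate 14 of 16 and -0.09. With rofecoxib 12 of 16 were negative (median -0.07) and none was called by edgeR or DESeq2, with 0 at an unadjusted p under 0.05. The summed level was 1070 ± 44.1 CPM in controls, 1015 ± 52.0 with celecoxib and 1054 ± 62.0 with rofecoxib. The control and celecoxib means lay about as far apart as the SD within a group, and the rofecoxib mean lay between them.

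Gstm4 (ENSMUSG00000027890, mm9 chr3:107843124-107848014), a mu class transferase, ran from 7.80 to 12.8 CPM in controls (median 10.2), 6.59 to 8.50 with celecoxib (median 7.84) and 7.98 to 10.7 with rofecoxib (median 9.72). All 8 celecoxib libraries lay below the mean of either other group, and 4 below the lowest library of each. The mean fell from 10.4 ± 1.63 to 7.73 ± 0.771 CPM (-0.43 ± 0.09, edgeR adjusted p = 0.0198), and against rofecoxib, at 9.62 ± 0.883 CPM, the log2 fold change was -0.32 ± 0.09 (edgeR adjusted p = 0.0151). Both calls were kept whichever single library was removed and after GC correction. None of the 50-base words of its transcript occurred in another gene's transcript.

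Gstm4 lies at the end of a cluster of 6 mu class genes in the order Gstm5, Gstm7, Gstm6, Gstm2, Gstm1 and Gstm4 (mm9 chr3:107698537-107848014, 149 kb). Of the 6, Gstm4, Gstm7 and Gstm2 were called lower with celecoxib than with rofecoxib and the others were not called. Gstm7 was at 13.6 ± 1.08 CPM with celecoxib, 15.98 ± 2.51 with rofecoxib and 16.3 ± 1.64 in controls (-0.24 ± 0.08 between the drugs, edgeR adjusted p = 0.0434). The celecoxib range of 12.6 to 15.3 CPM lay inside the rofecoxib range of 12.2 to 20.1 CPM. The call ended in 11 of 24 fits, without celecoxib 3 to 8 or without rofecoxib 1, 2, 3, 6 or 8 (edgeR adjusted p up to 0.109). It also ended with no filter on low counts and in a fit of these 2 groups alone. The replicate block and the adipocyte marker score as a covariate each ended it too. Gstm2 ran from 183 to 208 CPM with celecoxib and 189 to 224 with rofecoxib, and was at 192 ± 8.29 CPM with celecoxib, 208 ± 9.68 with rofecoxib and 198 ± 9.81 in controls. The difference between the drugs was -0.12 ± 0.04 (edgeR adjusted p = 0.028). It was not called without rofecoxib 1 (edgeR adjusted p = 0.0578) or with no filter on low counts (edgeR adjusted p = 0.0788). Gstm1, the most abundant, was at 521 ± 21.9, 511 ± 39.9 and 524 ± 51.3 CPM in controls, celecoxib and rofecoxib, and Gstm5 at 26.1 ± 1.76, 24.4 ± 1.97 and 26.6 ± 2.49 CPM. Of the 50-base words of the Gstm1 transcript, 23.1% also occur in other genes' transcripts, mostly in Gstm2-ps1, so its level is less certain. In all, 21 of the 45 members lie in 8 such clusters, with gaps of at most 200 kb.

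Transferases of the other classes were not called by edgeR or DESeq2 in any of the 3 comparisons. Gsto2 passed between the drugs with the adipocyte marker score as a covariate, and Gstt3 passed with celecoxib without control 6 and with GC correction. Gstt1, a theta class enzyme, was at 75.0 ± 3.86, 67.7 ± 7.09 and 70.0 ± 5.95 CPM in controls, celecoxib and rofecoxib, with ranges of 70.1 to 83.1, 55.7 to 78.7 and 59.5 to 76.1 CPM. Gstp1 was at 65.1 ± 3.20, 62.6 ± 5.91 and 62.6 ± 7.14 CPM and Gsto1 at 27.0 ± 5.50, 26.3 ± 3.70 and 25.5 ± 1.81 CPM. Gstp1 and Gstp2 cannot be cleanly separated, since 62.3% and 72.6% of their 50-base words occur in other genes' transcripts. The alpha class genes Gsta3 and Gsta4, which clear steroid and lipid peroxidation intermediates, varied more. Gsta3 ran from 4.05 to 16.9 CPM in controls, 4.20 to 14.0 with celecoxib and 2.49 to 13.7 with rofecoxib, and Gsta4 from 3.11 to 15.1, 3.22 to 5.28 and 3.17 to 6.483 CPM.

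The sulfotransferases held the largest called fold changes among the members, 1 with each drug. Sult1a1 (ENSMUSG00000030711, mm9 chr7:133816177-133820148), the main phenol sulfotransferase, ran from 36.3 to 62.0 CPM in controls (median 49.0), 55.9 to 78.8 with celecoxib (median 67.5) and 36.9 to 65.4 with rofecoxib (median 50.4). Of the celecoxib libraries, 7 lay above the highest control and 4 above the highest rofecoxib library. The mean rose from 49.1 ± 9.88 to 68.6 ± 8.02 CPM (0.48 ± 0.12, edgeR adjusted p = 0.0429), and against rofecoxib, at 49.9 ± 9.62 CPM, the log2 fold change was 0.46 ± 0.12 (edgeR adjusted p = 0.0102). The call against rofecoxib did not depend on any single library. The call against control ended in 15 of 24 fits, kept only without celecoxib 1, control 1, 5 or 6 or rofecoxib 1, 2, 5, 7 or 8 (edgeR adjusted p 0.0255 to 0.102), and it also ended with unscaled library totals, with no filter on low counts, in a fit of these 2 groups alone and with the replicate block (edgeR adjusted p = 0.0604, 0.0686, 0.0532 and 0.0604). The row overlaps Ccdc101 by 465 bp, and 7.72% of its 50-base words occur in Gm6939.

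Sult5a1 (ENSMUSG00000000739, mm9 chr8:125666545-125682417) was the member that changed with rofecoxib. Its level was 7.88 to 17.9 CPM in controls (median 11.002), 11.1 to 15.9 with celecoxib (median 12.5) and 5.66 to 9.80 with rofecoxib (median 8.203). All 8 rofecoxib libraries lay below the control mean, 3 lay below the lowest control, and all lay below the lowest celecoxib library. The mean fell from 11.9 ± 3.22 to 8.10 ± 1.31 CPM (-0.55 ± 0.13, edgeR adjusted p = 0.0259), and the log2 fold change of celecoxib against rofecoxib was 0.67 ± 0.13 (edgeR adjusted p = 0.0023). The call against control was lost without rofecoxib 7 or 8 or control 5 or 7 (edgeR adjusted p up to 0.0616) and in a fit of these 2 groups alone (edgeR adjusted p = 0.0519), and that between the drugs in none of 24 fits. The 10 fibroblast markers, none at 0, summed to 8312 to 11655 CPM with rofecoxib, against 10395 to 14653 CPM in controls and 10723 to 15314 with celecoxib. Their mean log2 score was 0.34 higher with celecoxib than with rofecoxib (two-sided exact permutation test, adjusted p = 0.0466 over 33 tests), and -0.31 for rofecoxib against control (exact permutation adjusted p = 0.0664). The 11 macrophage markers in the table, none at 0, summed to 136 to 285 CPM with rofecoxib and 246 to 406 CPM in controls (score difference -0.50, exact permutation adjusted p = 0.0466). The 10 smooth muscle markers, none at 0, summed to 43406 to 52027 CPM with rofecoxib, 41683 to 51392 with celecoxib and 34385 to 46847 CPM in controls. Their score was 0.19 higher with rofecoxib than in controls (exact permutation adjusted p = 0.0466) and 0.18 higher with celecoxib (exact permutation adjusted p = 0.0951). Of these 10, edgeR called 3 higher with each drug. Of all genes, 2.43% were called higher with rofecoxib and 0.913% with celecoxib. Within groups, Sult5a1 and the fibroblast score had a Pearson's r of 0.39 over 24 libraries (permutation p = 0.0662, adjusted p = 0.211 over 225 relations). The part of these markers in the Sult5a1 result was not tested.

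Sult4a1, a sulfotransferase known mainly from brain, differed widely between libraries of each group. It was at 0 in 5 controls and above 1 CPM in control 6 and control 7 only, at 6.37 and 1.06 CPM. With celecoxib it ran from 0 to 9.30 CPM (median 0.820) and with rofecoxib from 0.0456 to 6.24 CPM (median 0.459), and no comparison was called. The glucuronosyltransferases were scarce. Ugt1a6a, which conjugates small phenols, was at 1.27 ± 0.408, 1.60 ± 0.781 and 1.20 ± 0.469 CPM in controls, celecoxib and rofecoxib, and Ugt1a7c at 0.825 ± 0.220, 0.797 ± 0.235 and 0.761 ± 0.439 CPM. Both are spliced from the same Ugt1a locus and share exons, so their counts are uncertain.

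Several members varied with the amount of adipocyte marker RNA in the library, in all 3 groups. After each group's mean was removed, 9 of 45 members had a positive relation with the score of the 12 white and general adipocyte markers, from 225 relations of members with 5 marker scores. The share of all genes tested that would pass is not given here, so this count cannot be read as particular to these enzymes. Gstz1, which acts in tyrosine breakdown, had a Pearson's r of 0.98 and a Spearman's rho of 0.96 over 24 libraries (permutation adjusted p = 0.00075 and 0.00056), and 0.97 without control 4 and control 6, the libraries farthest from the median score. Cyp2e1 had an r of 0.90 and a rho of 0.91, and 0.90 without those 2 libraries. Within controls, celecoxib and rofecoxib, r was 0.98, 0.98 and 0.97 for Gstz1 and 0.95, 0.85 and 0.97 for Cyp2e1. Gsta4 (r 0.84), Gsto2 (0.81), Cyp4b1 (0.75), Cyp2j6 (0.72), Gstt2 (0.70), Gsta3 (0.68) and Ugt1a6a (0.56) had smaller values that passed for Pearson's r, of which Gsta4, Gsto2 and Cyp2j6 also passed for rho, and Cyp2f2 passed for rho alone (0.62, permutation adjusted p = 0.0471). None of the 5 members called against control was among them, with r from -0.30 for Cyp4f14 to 0.43 for Sult1a1. The markers summed to 1632 to 8477 CPM in controls, 2104 to 3834 with celecoxib and 2119 to 4651 with rofecoxib, none of the 12 was at 0, and their score did not differ between groups (exact permutation adjusted p 0.793 to 0.963). With this score as a covariate all 4 members called for celecoxib and Sult5a1 for rofecoxib remained called, and Cyp2d22 was called for celecoxib as well. Between the drugs Gstm7 was no longer called and Gsto2 was. The part of adipocyte content in these results was not tested.

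**Figure D4:**
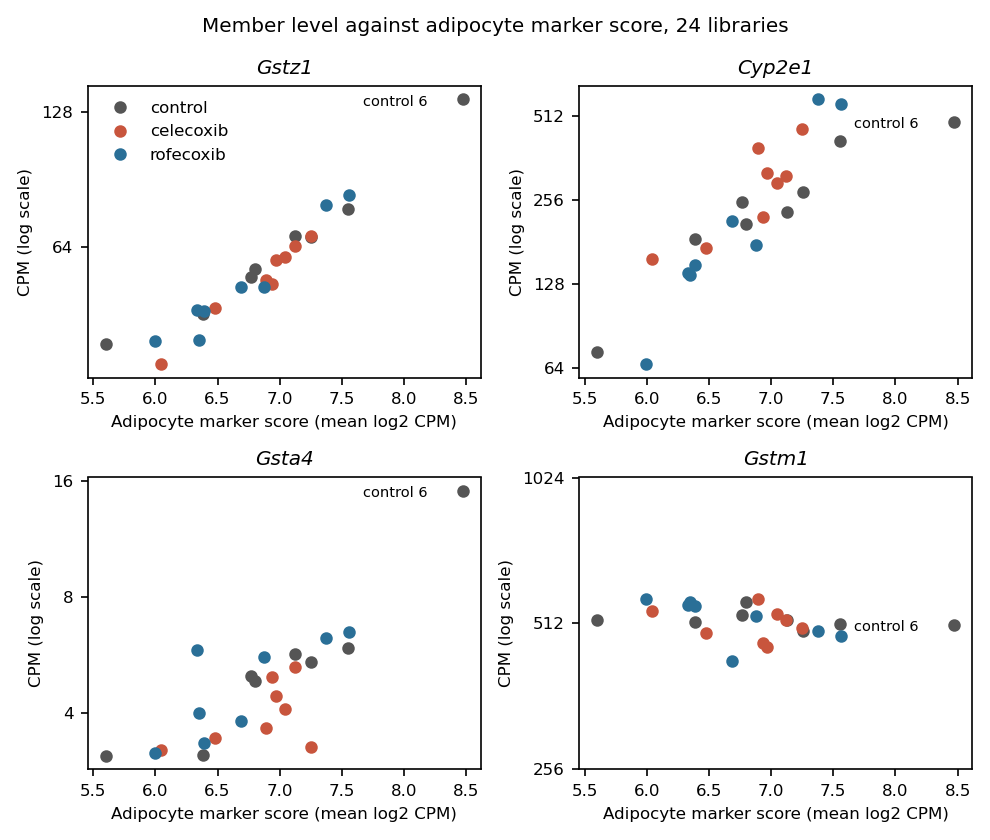
CPM (log axis) of Gstz1, Cyp2e1, Gsta4 and Gstm1 in each of the 24 libraries against the mean log2 CPM of 12 adipocyte markers, coloured by group. Gstz1 and Cyp2e1 rise with the score in all groups (r 0.98 and 0.90 after group means were removed), Gsta4 is highest in control 6 at 15.1 CPM, and Gstm1 shows no rise.

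Relations with the other marker scores were fewer. Gstz1 and Gsta4 passed with the brown adipocyte score (r 0.64 and 0.68, permutation adjusted p = 0.018 and 0.012), with r of 0.42 and 0.52 without control 6 and celecoxib 5. For rho, Gsta4 passed (0.56, permutation adjusted p = 0.0471) and Gstz1 did not (0.48, permutation adjusted p = 0.142). Cyp4b1 followed the endothelial score (r 0.82, rho 0.87, permutation adjusted p = 0.00075 and 0.00056, and 0.81 without rofecoxib 1 and rofecoxib 5), as did Cyp2j9 (r 0.58, adjusted p = 0.0473, and 0.52 without them). The 10 endothelial markers summed to 615 to 850 CPM in controls, 673 to 1002 with celecoxib and 483 to 1099 with rofecoxib. Gstz1, Gsta4, Cyp2j6 and Cyp4v3 ran against the smooth muscle score, with r from -0.63 to -0.59. Cyp27a1 had a positive relation with the fibroblast score that passed for rho alone (0.61, permutation adjusted p = 0.0467). Gstm2 had an r of -0.59 with the endothelial score (permutation adjusted p = 0.04975) and -0.38 without rofecoxib 1 and rofecoxib 5, so that relation rests on those libraries. Control 6, which had the most adipocyte marker RNA, lay more than 0.5 log2 units from the mean of the other controls in 18 of 45 members. The same count was 14 for celecoxib 4, 12 for rofecoxib 1, 12 for control 4 and, at the low end, 2 for control 7. The share over all genes tested is not given here.

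Among the partners of the P450s, the reductase Por changed with rofecoxib. Of 6 reductases and electron donors tested, none was called with celecoxib (1 at an unadjusted p under 0.05). Only Por, the reductase that feeds electrons to all microsomal P450s, was called with rofecoxib (16.7% of the list, beside 5.3% of all genes). Por was at 216 ± 29.3 CPM in controls, 218 ± 33.4 with celecoxib and 170.0 ± 16.2 with rofecoxib (-0.35 ± 0.09 against control, edgeR adjusted p = 0.0291, and 0.36 ± 0.09 for celecoxib against rofecoxib, edgeR adjusted p = 0.0065). After GC correction neither passed (-0.22 and 0.18, edgeR adjusted p = 0.154 and 0.161), and the first was lost without rofecoxib 7 or 8 or control 7 (edgeR adjusted p up to 0.0727). Of 17 xenobiotic receptors and partners tested, edgeR called none with celecoxib (1 at an unadjusted p under 0.05). With rofecoxib 1 was called (5.88%, beside 5.3% of all genes). Ahrr, the repressor of the aryl hydrocarbon receptor, was called with rofecoxib, at 0.762 ± 0.221 CPM in controls and 1.23 ± 0.114 (0.68 ± 0.20, edgeR adjusted p = 0.0495), a call kept only without celecoxib 2, 3 or 8, rofecoxib 5 or control 1 or 2 (edgeR adjusted p up to 0.101) and lost after GC correction (edgeR adjusted p = 0.117). Between the drugs 7 of the 17 (41.2%) were called, 4 higher and 3 lower with celecoxib, beside 22.7% of all genes. Of those with the smallest p, Nfe2l2 (lower) stayed called in every alternative fit, while Nr3c1 (lower), Keap1 and Nr1h2 (both higher) did not. The log2 fold change came down to 0.0064 for Keap1 and to -0.037 for Nr1h2. With GC correction 9.54% of all genes were called between the drugs.

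Other oxidising and reducing enzymes that were called against control were lower, with 1 exception, and no gene was called with both drugs. Of 38 tested, 3 (7.89%) fell with celecoxib, beside 1.41% of all genes called in either direction: Nqo1, a quinone reductase (31.1 ± 3.45 to 24.8 ± 2.20 CPM), its relative Nqo2 (17.3 ± 1.13 to 14.9 ± 0.804 CPM) and the aldehyde oxidase Aox1 (70.0 ± 7.74 to 54.9 ± 8.78 CPM). Their log2 fold changes were -0.33 ± 0.07, -0.22 ± 0.05 and -0.35 ± 0.09 (edgeR adjusted p = 0.0208, 0.0374 and 0.0429). With rofecoxib 3 fell and 1 rose (10.5%, beside 5.3% of all genes). Fmo1, a flavin monooxygenase, fell from 235 ± 53.4 to 144 ± 22.2 CPM (-0.70 ± 0.13, edgeR adjusted p = 0.0082), a call kept whichever single library was removed and after GC correction. Aldh2 and Adh1, dehydrogenases of aldehydes and alcohols, fell by 0.19 and 0.54 on the log2 scale (edgeR adjusted p = 0.0472 and 0.0495). Aldh2 stayed called only without celecoxib 2, 4, 7 or 8, rofecoxib 4 or 6 or control 4 or 8, and Adh1 only without celecoxib 5 or 8, rofecoxib 5 or 6 or control 4 (edgeR adjusted p up to 0.103 and 0.101), and neither after GC correction (edgeR adjusted p = 0.141 and 0.0918). Aldh1a2, which makes retinoic acid, rose from 0.577 ± 0.261 to 1.33 ± 0.332 CPM (1.19 ± 0.29, edgeR adjusted p = 0.0266), a call that ended on removing control 5 (edgeR adjusted p = 0.0527). In the celecoxib comparison the Nqo1 call ended without celecoxib 5 or control 3 (edgeR adjusted p up to 0.0591). The Nqo2 call ended without celecoxib 3, 4, 5, 6 or 8 or control 2, 3, 4 or 8 (edgeR adjusted p up to 0.0782) and after GC correction (edgeR adjusted p = 0.0607). The Aox1 call was kept only without celecoxib 1 or 2, rofecoxib 1 or 4 to 8, or control 5 or 6 (edgeR adjusted p up to 0.0939).

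Of 24 further conjugating enzymes and cofactor suppliers, edgeR called 1 with celecoxib (4.17%, beside 1.41% of all genes). None was called with rofecoxib, beside 5.3% of all genes (5 at an unadjusted p under 0.05). The gene called was Gclm, a subunit of the enzyme that starts glutathione synthesis. Gclm was at 38.7 ± 1.59 CPM in controls and 34.6 ± 1.79 with celecoxib (-0.16 ± 0.04, edgeR adjusted p = 0.0473), a call kept only without celecoxib 1 or 6, rofecoxib 1, 4, 6 or 8 or control 6 (edgeR adjusted p up to 0.11) and lost after GC correction (edgeR adjusted p = 0.0669). Of 24 drug and conjugate transporters, edgeR called none with celecoxib (4 at an unadjusted p under 0.05) and 3 with rofecoxib (12.5%, beside 5.3% of all genes). The conjugate exporter Abcc3 was lower (1.40 ± 0.270 to 0.753 ± 0.334 CPM, -0.89 ± 0.23, edgeR adjusted p = 0.0333), as was the organic anion carrier Slco2b1 (31.5 ± 4.06 to 23.1 ± 4.98 CPM, -0.45 ± 0.13, edgeR adjusted p = 0.0453), and Slco1c1 was higher (0.889 ± 0.161 to 1.29 ± 0.272 CPM, 0.53 ± 0.15, edgeR adjusted p = 0.0428). All 3 calls ended after GC correction (edgeR adjusted p = 0.0666, 0.0906 and 0.122). Abcc3 was lost without rofecoxib 2, 3, 7 or 8 or control 5 or 7, Slco1c1 without celecoxib 6, rofecoxib 1, 3, 6, 7 or 8 or control 3, 5, 6, 7 or 8, and Slco2b1 was kept only without celecoxib 2, 3, 4, 5 or 8, rofecoxib 4, 5 or 6 or control 4 (edgeR adjusted p up to 0.0727, 0.0897 and 0.0821). Between the drugs 8 of the 38 enzymes, 6 of the 24 conjugating enzymes and 5 of the 24 transporters were called, shares on either side of the 22.7% of all genes.

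Known targets of these receptors were read against the 1.41% of all genes called with celecoxib and 5.3% with rofecoxib. Of 7 aryl hydrocarbon receptor targets tested, 2 (28.6%) were called with celecoxib, Cyp1b1 higher and Nqo1 lower, and 1 (14.3%) with rofecoxib, Ahrr, which was higher. Of 17 NRF2 targets, 16 had a negative fold change with celecoxib and 3 were called (17.6%), Gstm4, Nqo1 and Gclm, with a list median of -0.14; with rofecoxib 11 were negative (median -0.03) and none was called by edgeR (2 at an unadjusted p under 0.05). The NRF2 list holds 8 of the glutathione transferases described above, so it is no separate evidence of their direction. Of 10 targets of the constitutive androstane and pregnane X receptors, edgeR called none with celecoxib (4 at an unadjusted p under 0.05), and Por and Abcc3 were called lower with rofecoxib (20.0%). Cyp2b10, the classic target of the constitutive androstane receptor, was at 3.44 ± 0.944, 3.97 ± 1.71 and 2.54 ± 0.838 CPM in controls, celecoxib and rofecoxib. It was called between the drugs by DESeq2 and not by edgeR with all 24 libraries. Of 5 PPAR alpha targets tested, edgeR called none in any comparison (1, 1 and 0 at an unadjusted p under 0.05), and no Cyp4a gene was among the members.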

How the data were processed

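PolyA RNA-seq was measured in 24 aorta libraries. The authors deposited whole-number counts per gene in 1 table. The genome build mm9 and the tools STAR 2.5.1b and CASAVA 1.8.2 come from the submitters' processing notes. What counted the reads, whether it used strand and what made library totals nearly equal is not stated there. The test was edgeR 4.0.16 under R 4.3.3: filterByExpr, TMM, a robust quasi-likelihood fit with 1 mean per group over all 24 libraries, and Benjamini-Hochberg adjustment over 14451 genes. The SE is the log2 fold change over the square root of F.

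The members and lists were chosen with earlier results of these data known. Named members were those called anywhere, the 10 highest per kilobase, the 3 smallest p in each direction and comparison, the leader of each role and a set list of well-known genes, with up to 4 called genes per pathway list and comparison. Exon lengths and GC content came from GENCODE M21, matched by identifier for 97.4% of genes tested. Marker scores are mean log2 CPM (prior count 2); relations used 100000 permutations, were added after the data were seen, and 1e-05 is the smallest p they can give. Alternatives were DESeq2 1.42.0, its size factors, library totals, no filter, 2 groups only, a replicate block, GC correction, an adipocyte covariate and leaving out each library. The fits were tested on simulated data.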

Additional observations from a re-analysis of the deposited data

Results flagged for a closer look

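In 165 sets of 8 libraries (55 named genes in 3 groups), 9 had an end value set apart from the rest by more than Dixon's 95% limit, beside about 1 in 20 that chance flags. Of the members, Gstt1 was 83.1 CPM in control 6 (next highest 76.1), Cyp2j6 19.2 CPM in control 6 (next 13.6), Gsta4 15.1 CPM in control 6 (next 5.92), and Gstm5 31.7 CPM in rofecoxib 7 (next 27.4). Of the other pathway genes, Tpst2 was 27.0 CPM in control 6 (next 23.9), Aox1 88.2 CPM in control 2 (next 71.9), Por 285 CPM in control 3 (next 219.6), Abcc3 2.02 CPM in celecoxib 4 (next 1.12) and Slco1c1 1.87 CPM in celecoxib 8 (next 1.42). All 9 were the highest library of their group, and 4 were in control 6.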

How the results depend on the processing

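The 4 members called for celecoxib against control became 2 with no filter on low counts, 1 in a fit of only the 2 groups and 2 with the replicate block. With library totals 1 was higher and 2 were lower. In DESeq2 and with the adipocyte covariate 3 were higher and 2 lower. Without control 6 and with GC correction 3 were higher and 3 lower. The count was 1 to 5 when single libraries were left out. The 1 member called for rofecoxib became 2 in DESeq2 and 0 in a fit of only the 2 groups, with GC correction and replicate block, or without control 6 and with GC correction (chosen after seeing the data), and 0 to 1 when single libraries were left out. Between the drugs the 8 members became 6 with no filter on low counts and 7 to 9 when single libraries were left out. In DESeq2 5 were higher and 4 lower, and with GC correction 3 were higher and 4 lower. In a fit of only the 2 groups and with the replicate block 4 were higher and 3 lower. Replicate numbers did not pair the libraries: over 24 pairs of equal number r ran from -0.39 to 0.32, with 10 over 0.1 and 5 best matches. The replicate block gave 187, 653 and 3193 calls over all genes. GC correction changed the calls over all genes from 204 to 292, from 766 to 193 and from 3275 to 1378 in the 3 comparisons; leaving out single libraries gave 42 to 312, 170 to 1121 and 2147 to 3739. No filter gave 86, 294 and 2420, DESeq2 473, 1567 and 3624, and only the 2 groups 88, 461 and 3071. For rofecoxib against control, GC correction gave -0.022 for Sult1a1, -0.075 for Cyp4v3 and 0.015 for Gstm7, and with the replicate block as well -0.020, -0.068 and 0.0075. Cyp4v3 was -0.014 without control 6 and with GC correction. Leaving out single libraries gave -0.038 to 0.081 for Sult1a1, -0.026 to 0.061 for Cyp4v3, -0.095 to 0.025 for Gstm7 and -0.011 to 0.068 for Cyp2d22. Nr1h2, which was 0.18 between the drugs, was -0.037 under each of the 3 fits with GC correction. The cause was not tested. Members under 1 CPM rest on few reads.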
